A study of Sus scrofa with 4 samples.

Results

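Carbonyl reductase was read in pig liver by 3 probe sets of an Affymetrix porcine expression array, and 2 of them, both listed as CBR1, stood in opposite directions between control pigs and pigs fed clenbuterol. A probe set is a group of short probes that together stand for 1 transcript. The members were the 2 probe sets listed as CBR1, named here by the transcript each is annotated to, the CBR1 mRNA probe set and the ovarian clone probe set, and any further probe set whose array design text contains "carbonyl reductase". That text search added 1 probe set, for DHRS4, giving 3 of the 15383 probe sets in the GCRMA table. The CBR1 pair was chosen by its measured differences between clenbuterol and control, so the clenbuterol values of the pair are given as a description without a test, and DHRS4, which entered through its text, was tested.

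The study compared the livers of 4 Chinese miniature pigs, 2 fed clenbuterol, a β2-adrenergic agonist, and 2 given the same diet without it. From 8 weeks of age, at an average of 18 kg, treated pigs received clenbuterol in the feed at 25 mg/kg 2 times daily for 4 weeks and then 50 mg/kg for a further 4 weeks, and liver was sampled at 4 months. A male (replicate 1) and a female (replicate 2) made up each group, and the design text describes full sibs without settling whether sibs shared a treatment or were split between treatments. RNA of each pig was hybridised to 1 array, so every SD below is over 2 arrays, and the number of arrays limits the precision. In whole liver, fewer cells of a type and less RNA per cell cannot be told apart.

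CBR1 encodes a cytosolic enzyme of the short-chain dehydrogenase/reductase (SDR) family that uses NADPH to reduce ketones, aldehydes and quinones. Its substrates include prostaglandin E2, which it can turn into prostaglandin F2α, and the anthracycline drugs, whose alcohol metabolites it forms. In the pig the enzyme was also described from the testis as 20-beta-hydroxysteroid dehydrogenase, the name the array design still carries. DHRS4 is another SDR enzyme, found in peroxisomes, that reduces carbonyl compounds and retinal with NADPH.

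The deposited annotation ties the CBR1 probe sets to different transcripts. The CBR1 mRNA probe set was designed on the full-length pig mRNA NM_214073, named there as 20-beta-hydroxysteroid dehydrogenase (CBR1), and the annotation matches 11 probes to that RefSeq transcript. The ovarian clone probe set was designed on an expressed sequence tag from a cluster of 54 sequences that the design text calls moderately similar to human carbonyl reductase 1. The annotation matches 11 of its probes to AK236326, an mRNA cloned from pig ovary. At design the probe sets belonged to separate transcript clusters, and the deposited annotation places both in the cluster of the CBR1 mRNA under the same gene ID, 397143. Both carry the annotation's grade A by matching probes, as do 31.1% of all probe sets in the table. The probe sets thus share a symbol and a gene ID but not a matched transcript.

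In the gene table of the pig assembly Sscrofa11.1, used for names and gene order only, NM_214073 belongs to 1 gene, CBR1, and AK236326 is listed for 0 genes. The gene next to CBR1 on the side of SETD4 is LOC100622246, for which the table gives the synonym CBR3, and a separate gene named CBR3 lies on the other side. Between SETD4 and CBR3 the table lists 8 entries besides CBR1, of which 4 are protein-coding and 4 pseudogenes, and 0 of these 8 had a probe set assigned by gene ID or symbol in the GCRMA table. Which of these transcripts the ovarian clone probe set detects in liver was not tested.

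The CBR1 mRNA probe set was bright in control liver and dim in treated liver. It had GCRMA values, which are background-corrected, normalised log2 expression values, of 8.63 and 8.73 on the control arrays and 3.99 and 4.04 on the clenbuterol arrays. The groups were 4.59 apart on the log2 scale at their nearest arrays. Of all tested probe sets 37.3% were wholly lower with clenbuterol. The means were 8.68 ± 0.07 (log2, SD, n = 2) in controls and 4.01 ± 0.04 with clenbuterol, a difference of −4.67 or 25.4-fold lower. In each treated liver only 23.4% and 23.7% of the 15383 probe sets had a GCRMA value as low or lower, against 75.8% and 77.0% in the control livers. The treated values were thus among the dim values of the table.

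The ovarian clone probe set ran the other way. It had GCRMA values of 4.17 and 4.39 on the control arrays and 7.22 and 7.53 on the clenbuterol arrays. The groups again stood apart, by 2.83 (log2) at their nearest arrays. Groups that did not overlap were common, with 37.3% of tested probe sets wholly lower and 30.8% wholly higher with clenbuterol. The means were 4.28 ± 0.16 (log2, SD, n = 2) and 7.37 ± 0.22, a difference of 3.09 or 8.54-fold higher with clenbuterol. Its control values were the dim ones, with 24.4% and 26.5% of the table at or below them, and its treated values lay at 58.0% and 62.2%. The authors' deposited table gives signed folds of −25.4 for the CBR1 mRNA probe set and 8.54 for the ovarian clone probe set.

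**Figure D1:**
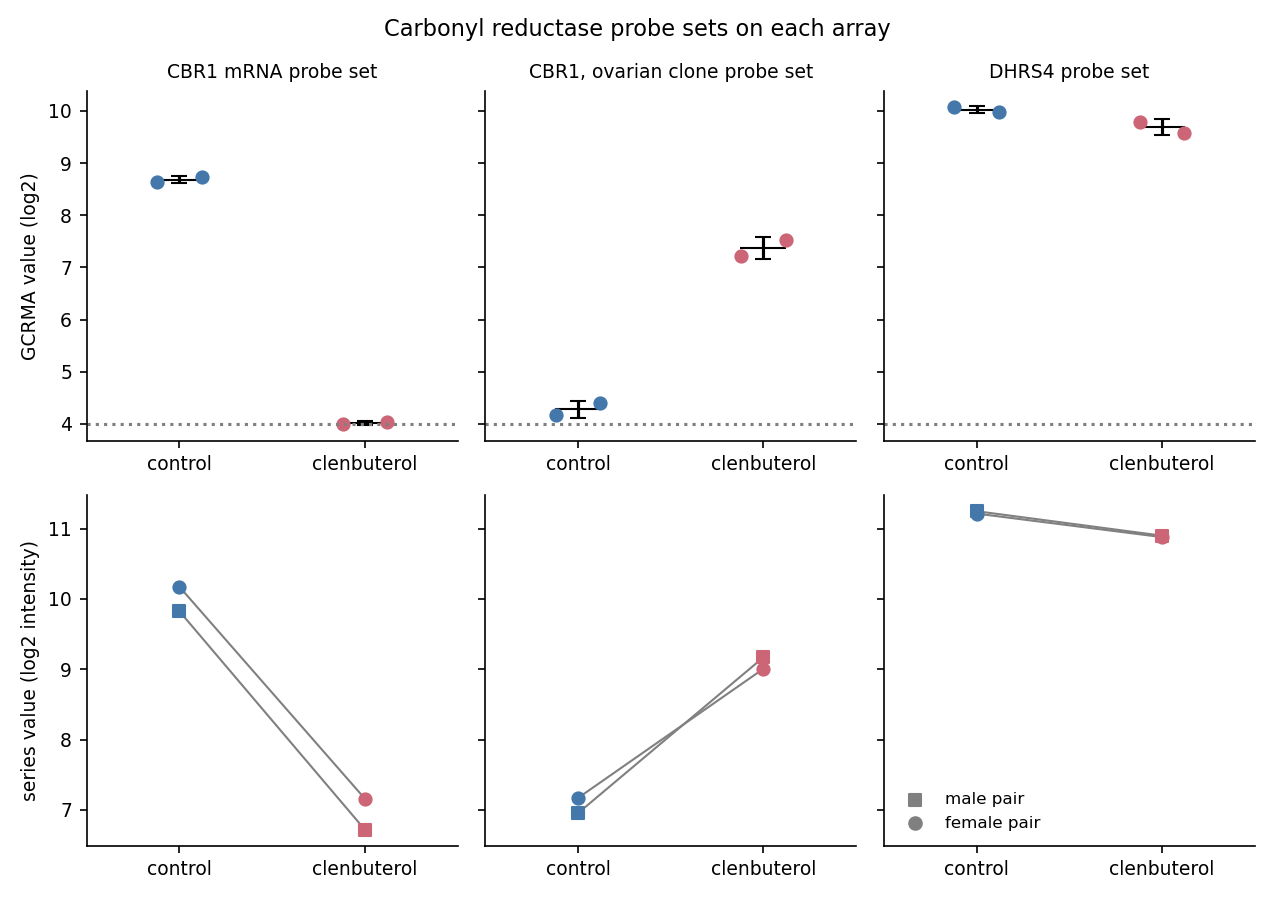
Values of the 3 carbonyl reductase probe sets on each array, by group. Upper row: deposited GCRMA values (log2), 1 point per array, with the group mean and SD (n = 2) in black and the filter of 4 dotted; lower row: log2 of the series intensities, with lines joining the male pair (squares) and the female pair (circles). The CBR1 mRNA probe set goes from about 8.68 to 4.01 and the ovarian clone probe set from 4.28 to 7.37 in the GCRMA values, while DHRS4 differs by −0.34.

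DHRS4 differed far less. Its GCRMA values were 10.07 and 9.98 on the control arrays and 9.80 and 9.58 on the clenbuterol arrays. The groups did not overlap, which was also so for 68.1% of all tested probe sets. The mean went from 10.03 ± 0.06 (log2, SD, n = 2) to 9.69 ± 0.15, a difference of −0.34 ± 0.11 (SE) with a 95% interval of −0.63 to −0.05. By limma, with Benjamini-Hochberg adjustment over the 11931 probe sets tested, DHRS4 did not pass 0.05 (adjusted p = 0.0925), in a comparison where 23.8% of the probe sets did (11.4% higher and 12.4% lower). Its sign depended on the scaling: after scaling the intensities to the control spikes added to each array, the difference was 0.033 (log2).

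All 3 probe sets passed the filter for the test, a GCRMA value of 4 or more on 2 or more arrays. DHRS4 passed on every array, the ovarian clone probe set on every array with control values just above the limit, and the CBR1 mRNA probe set on 3 arrays. In the order of all 11931 differences, the CBR1 mRNA probe set was rank 2 from the lowest and the ovarian clone probe set rank 14 from the highest, a placing that follows from how the pair was chosen. Of the tested probe sets 2.86% were at least 2-fold lower with clenbuterol and 3.13% at least 2-fold higher. The median difference of all tested probe sets was −0.03 (log2), with a 5th percentile of −0.78 and a 95th of 0.81, and both CBR1 values lay outside that range.

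**Figure D2:**
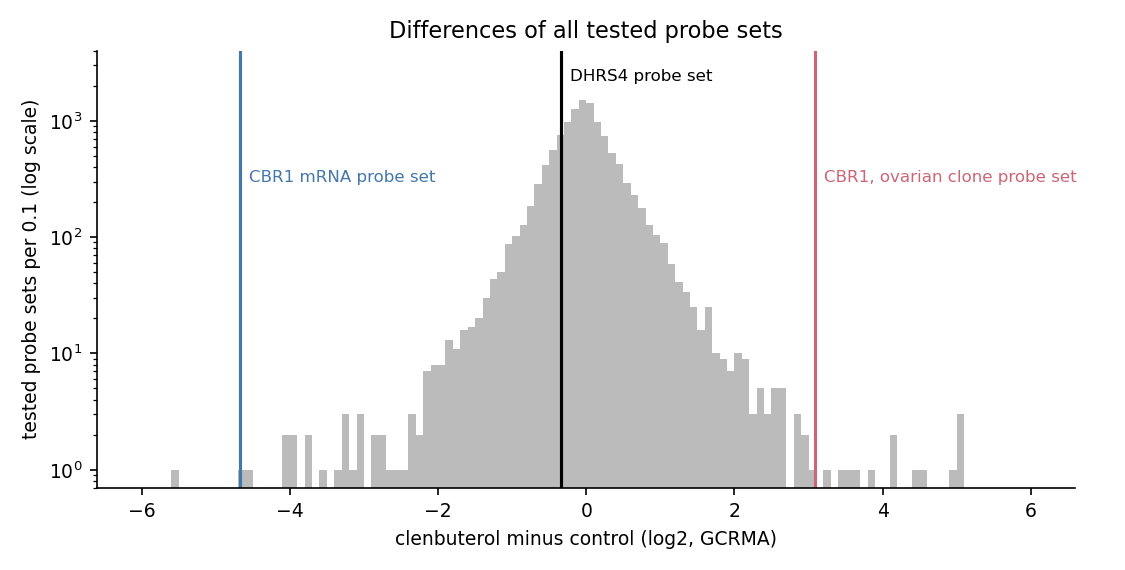
Histogram of the differences between clenbuterol and control (log2, GCRMA) of the 11931 tested probe sets, with counts on a log scale in steps of 0.1, and vertical lines at the 3 carbonyl reductase probe sets. The CBR1 lines at −4.67 and 3.09 stand in opposite tails and the DHRS4 line at −0.34 within the main body.

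A second deposited table, the series values, holds scaled intensities for the same arrays and names the pig behind each column, so the male and the female pair could be seen separately. The CBR1 mRNA probe set had an intensity of 907 in the control male and 105 in the treated male, and 1154 in the control female and 143 in the treated female. The clenbuterol value was 8.62-fold lower in the males and 8.08-fold lower in the females. The pairs thus gave nearly the same ratio, at −3.11 and −3.01 (log2). The ovarian clone probe set had 124 and 576 in the control and treated male, and 144 and 515 in the control and treated female. The clenbuterol value was 4.65-fold higher in the male pair, at 2.22 (log2), and 3.58-fold higher in the female pair, at 1.84. DHRS4 went from 2432 to 1910 in the males and from 2375 to 1883 in the females, −0.35 and −0.33 (log2). Every member thus had the same sign in both pairs. For the CBR1 probe sets this is the contrast they were chosen by, on the same arrays, so it is a description only. The pairs were not tested against each other, since a single pig of each sex per group leaves no degrees of freedom.

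The sizes were smaller in the series values than in the GCRMA values for the CBR1 pair and alike for DHRS4. The mean difference was −3.06 (log2) against −4.67 for the CBR1 mRNA probe set and 2.03 against 3.09 for the ovarian clone probe set. Both tables come from the same 4 arrays, so they are no independent measurements of the pigs. The dim arrays of the pair were mid-range in this table: the treated values of the CBR1 mRNA probe set lay at or above 44.6% and 50.3% of all 24123 probe sets, and the control values of the ovarian clone probe set at 48.4% and 51.1%. These shares are over a larger set than the 15383 probe sets of the GCRMA values, so they cannot be set directly against the GCRMA shares. For DHRS4 the difference was −0.34 ± 0.11 (log2, SE), with an adjusted p of 0.104 by limma, where 11.1% of probe sets passed.

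**Figure D3:**
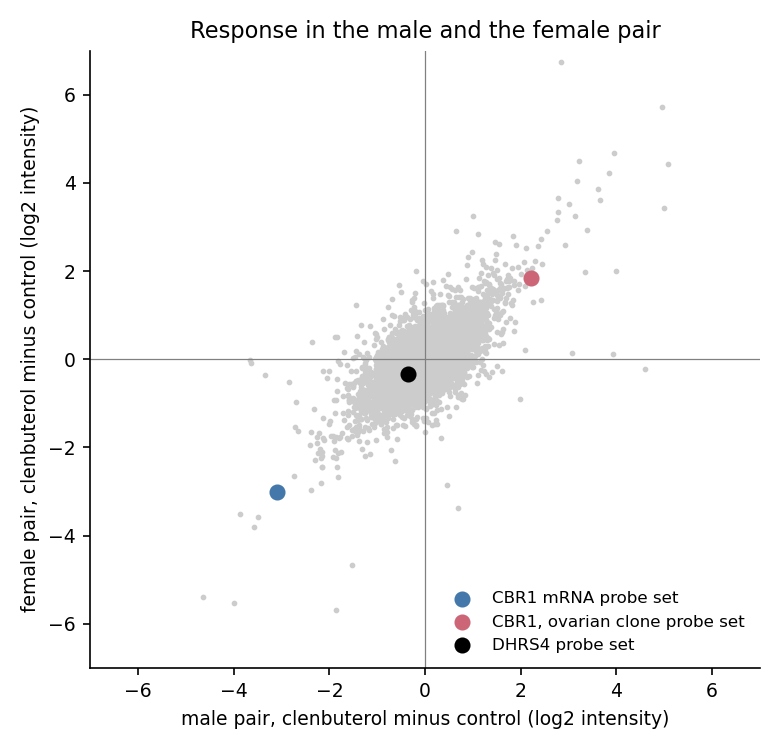
Difference between clenbuterol and control in males (x axis) and females (y axis), in log2 intensity of the series values, for the 11931 tested probe sets (grey). The CBR1 probe sets lie at −3.11 and −3.01 and at 2.22 and 1.84, and DHRS4 at −0.35 and −0.33, all with the same sign in both pairs.

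The comparison of males with females was independent of how the pair was chosen and was tested for all 3 members in the series values, with treatment in the model. The CBR1 mRNA probe set was lower in the male than in the female in both groups, with a male minus female difference of −0.35 (log2) between the controls and −0.44 between the treated pigs. The mean difference of −0.39 ± 0.11 (log2, SE, 95% interval −0.70 to −0.08) did not pass by limma (adjusted p = 0.655). The GCRMA columns do not name the pig, but each group held a male and a female. There the values of this probe set lay closer, at 8.63 and 8.73 in controls and 3.99 and 4.04 with clenbuterol. The series difference was thus not seen at that size in the GCRMA values of the same arrays. The ovarian clone probe set was at −0.03 ± 0.14 (SE), with opposite signs in the controls (−0.22) and the treated pigs (0.16), and DHRS4 at 0.03 ± 0.11, with adjusted p of 0.972 and 0.960 by limma. In this comparison 0.00838% of the tested probe sets passed, and of the members 0 of 3 passed by limma, with an unadjusted p under 0.05 for 1 of 3 against 7.5% of all tested probe sets. Sex, replicate number and possibly litter cannot be told apart here. All 5 ribosomal RNA control probe sets also differed between the sexes, 4 higher in the females and 1 higher in the males. A 28S probe set read 2463 and 1632 in the males against 15464 and 15472 in the females, and an 18S probe set the other way, 2167 and 2142 against 609 and 454. The part of these controls in the members' values was not tested.

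Probe sets of the same gene rarely differed this far. Of 113 genes with at least 2 tested probe sets and a symbol that the array design text also names, CBR1 was the only gene with a probe set at least 2-fold higher and another at least 2-fold lower with clenbuterol, in the GCRMA values and also in the series values. The gap between its probe sets was 7.76 (log2), against a median gap of 0.30 in the other genes. The next gap was 1.68 for CAPNS1, the small calpain subunit, whose probe sets were at 0.38 and −1.30. Under all deposited symbols 292 genes had several tested probe sets and 5 of them had such opposite differences, namely CBR1, LOC654406, LOC733594, OPTN and TACSTD1, and CBR1 and LOC733594 had them in the series values as well. The largest gap besides CBR1 was 4.22 for LOC733594. Since the pair was picked for its opposite directions, these counts describe where it stands and test nothing.

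**Figure D4:**
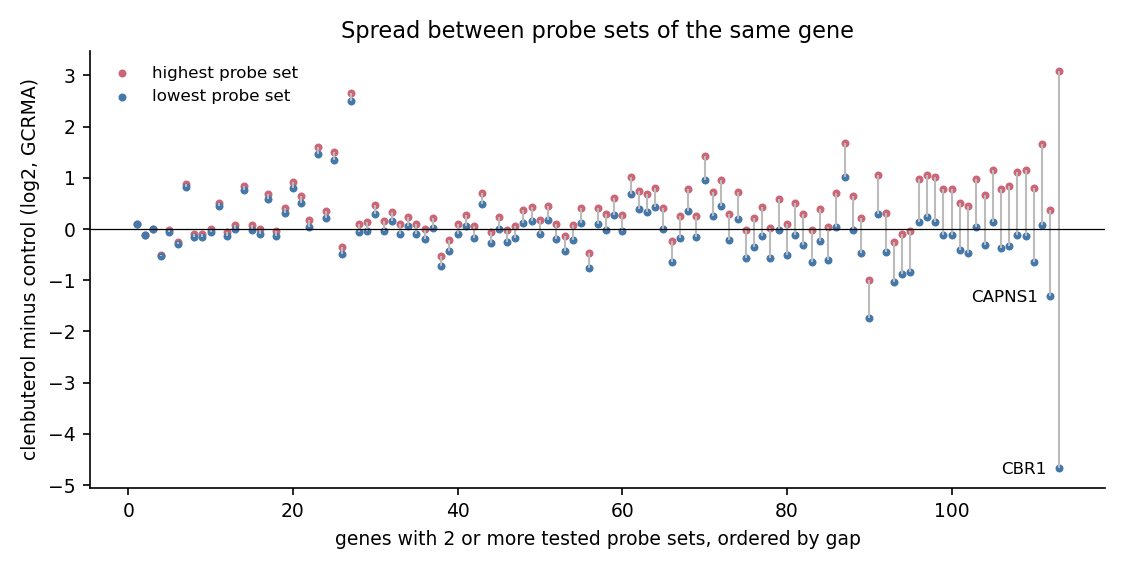
Highest (red) and lowest (blue) difference between clenbuterol and control (log2, GCRMA) among the tested probe sets of each of 113 genes, ordered by the gap between them. CBR1 at the right end spans 3.09 to −4.67, and CAPNS1 beside it has a gap of 1.68.

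The genes nearest in pattern were found by the Euclidean distance between the 4 GCRMA values after each profile was centred on its own mean, among tested probe sets with such a symbol. For the CBR1 mRNA probe set these were MBL2, the mannose-binding lectin of complement, at a distance of 0.69, APOA4, an apolipoprotein, at 1.94, APCS, serum amyloid P component, at 2.87, PPP1CA, a catalytic subunit of protein phosphatase 1, at 2.94 and CACNA2D1, a calcium channel subunit, at 2.97. MBL2 went from 12.87 and 13.09 in controls to 8.85 and 9.12 with clenbuterol. Only MBL2 was close to the CBR1 profile, and the others had smaller differences, from −2.73 to −1.71. For the ovarian clone probe set the nearest were NPG4, an antibacterial cathelicidin, at 0.53, RGS1, a regulator of G-protein signalling, at 0.62, TCN1, a vitamin B12 binder, at 0.69, CYP7A1, which starts bile acid synthesis from cholesterol, at 0.92 and YWHAZ, a 14-3-3 protein, at 0.98. NPG4 went from 2.19 and 2.09 in controls to 4.51 and 5.07 with clenbuterol, so it passed the filter of 4 only through the clenbuterol arrays. RGS1 went from 4.38 and 4.05 to 6.76 and 6.93. TCN1, at 3.91 and 4.22 in controls, and YWHAZ, at 3.17 and 4.08, also lay below the filter on a control array. With 4 arrays in 2 groups, any probe set with a difference of like size and sign is near by this measure.

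A further probe set is titled carbonyl reductase in the annotation, but its design text names dicarbonyl L-xylulose reductase, so it was not a member. The gene table names its gene ID CBR2, the carbonyl reductase known from the mitochondria of pig lung. Its GCRMA values were 10.01 and 9.88 in controls and 9.68 and 9.52 with clenbuterol, a difference of −0.34 ± 0.10 (log2, SE) that did not pass by limma (adjusted p = 0.0765). It was described because of its title, after its values were seen.

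Of 25 other genes listed for the reduction of carbonyl groups by SDR and aldo-keto reductase enzymes, 5 were measured. By limma 0 of 5 passed, against 23.8% of all tested probe sets, with an unadjusted p under 0.05 for 3 of 5 against 39.3%. In the series values 0 passed against 11.1% of all, with 1 of 5 under that unadjusted limit against 32.5%. Their median difference was −0.09 (log2). Besides DHRS4, HSD11B1, which regenerates cortisol, went from 14.17 and 14.19 to 13.95 and 13.97, and AKR1B1, aldose reductase, from 6.73 and 6.68 to 7.45 and 6.96, with adjusted p of 0.107 and 0.115. In the series values AKR1B1 was at 0.50 (log2) between the males and −0.37 between the females. The aldehyde reductase AKR1A1 was at 0.13 ± 0.09 (log2, SE) and HSD17B4, a peroxisomal enzyme of fatty acid oxidation, at −0.09 ± 0.10.

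More reductases were found through the array design text alone, by its words for the SDR family, hydroxysteroid dehydrogenases, aldo-keto reductases, xylulose reductase and biliverdin reductase. This search was set after values were known, so these 23 probe sets, some sharing a gene, get values and no test. Differences ranged from −1.04 to 1.25 (log2, GCRMA) with a median of 0.36, against −0.03 over all tested probe sets. The 23 include the probe sets of HSD11B1 and of dicarbonyl L-xylulose reductase described above. At least 2-fold higher were 3 of 23 and at least 2-fold lower 1 of 23, against 3.13% and 2.86% of all tested probe sets. In the series values 0 of 23 were at least 2-fold higher and 1 of 23 at least 2-fold lower. Of all tested probe sets the 5th percentile there was −0.74 (log2) and the 95th 0.72. The highest, weakly similar to human HSD17B2, which inactivates estradiol and testosterone, went from 7.89 ± 0.02 (log2, SD, n = 2) to 9.13 ± 0.11, and another probe set for it differed by 0.31. The probe set similar to human biliverdin reductase A, which makes bilirubin, went from a mean of 8.01 ± 0.23 (log2, SD, n = 2) to 9.05 ± 0.14. A probe set similar to human DHRS7, a microsomal SDR enzyme, went from 9.38 ± 0.13 to 10.40 ± 0.03, while another for DHRS7 differed by 0.41. A probe set similar to mouse Akr1e1, an aldo-keto reductase, went from 9.67 ± 0.16 to 8.63 ± 0.13, while another for Akr1e1 differed by −0.58. Both ends of this range were smaller than either CBR1 difference.

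Genes around the CBR1 reaction were taken from 4 further lists. In the prostaglandin list, 2 of 4 measured genes rose and 0 fell, where 11.4% of all tested probe sets rose and 12.4% fell. PTGDS, prostaglandin D synthase, had values of 5.63 and 5.87 in controls and 7.23 and 6.95 with clenbuterol, a rise of 1.34 ± 0.15 (log2, SE, adjusted p = 0.0103 by limma). PTGS1, the constitutive cyclooxygenase, rose by 0.43 ± 0.08 (adjusted p = 0.0278). Neither passed in the series values, where PTGDS was at 0.11 (log2) between the males and 0.55 between the females. TBXAS1, thromboxane synthase, at 0.18 ± 0.09 and PTGR1, which inactivates prostaglandins and leukotriene B4, at −0.08 ± 0.08 did not pass.

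In the list of NADPH supply and use, 1 of 5 measured genes rose and 2 fell, where 11.4% of all tested probe sets rose and 12.4% fell. FASN, the fatty acid synthase that consumes NADPH, rose by 1.51 ± 0.13 (log2, SE). Malic enzyme ME1, which makes NADPH, fell from 5.11 and 5.16 to 4.09 and 4.09. MTHFD1, a folate enzyme, fell by 0.34 on the log2 scale with its brightest probe set (adjusted p = 0.0463 by limma), but its other tested probe sets were at 0.84 and 0.43, so no direction holds for that gene. PGD, an NADPH source of the pentose phosphate pathway, was at 0.24 ± 0.12 and IDH2 at 0.12 ± 0.09. In the detoxification list 1 of 4 measured genes passed, where 23.8% of all tested probe sets did. EPHX2, soluble epoxide hydrolase, rose by 0.53 ± 0.12 (log2, SE, adjusted p = 0.0429 by limma). The other genes did not pass: EPHX1 at 0.26 ± 0.10, MGST1 at 0.10 ± 0.08 and GSTA1 at −0.08 ± 0.08.

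NFE2L2 is the transcription factor that turns on human CBR1 and other genes of the oxidative and electrophile response. Of 7 measured genes of its target list, 1 rose and 1 fell, where 11.4% of all tested probe sets rose and 12.4% fell. ABCC2, a canalicular exporter, rose by 0.96 ± 0.08 (log2, SE) and TXNRD1, thioredoxin reductase, fell from 8.57 and 8.72 to 7.90 and 7.93. HMOX1, heme oxygenase, was at 9.44 and 9.50 in controls and 9.46 and 9.48 with clenbuterol. Glutathione reductase GSR was at −0.28 ± 0.11, thioredoxin TXN at 0.09 ± 0.12 and the ferritin chain FTL at −0.04 ± 0.08. The other tested probe set was at −0.05 (log2) for GSR and at −0.09 for TXN. Over the 5 lists 8 of 25 genes passed, 5 higher and 3 lower, 32% against 23.8% of all tested probe sets, with a median difference of 0.09 (log2) against −0.03. The calls of PTGS1, MTHFD1 and EPHX2 were lost whichever array was left out, that of TXNRD1 without the second control or either clenbuterol array and that of PTGDS without the first clenbuterol array, so that 3 to 5 of the 8 remained. Scaling to the control spikes raised all intensity differences by 0.37 (log2), and DHRS4, HSD11B1, HSD17B4, PTGR1, MTHFD1 and GSTA1, below 0 in both tables before it, then stood above 0. IDH2, HMOX1 and FTH1, above 0 in the GCRMA values, were below 0 in the unscaled intensities and above 0 after scaling, and FTL was below 0 in the GCRMA values alone. With this scaling 7 of the 25 genes passed against 26.9% of all tested probe sets (24.8% higher and 2.13% lower). PGD (0.85, adjusted p = 0.00858 by limma) and TBXAS1 (0.75, adjusted p = 0.0441) were among them. Before scaling, TBXAS1 was at −0.24 (log2) between the males and 0.99 between the females in the series values.

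**Figure D5:**
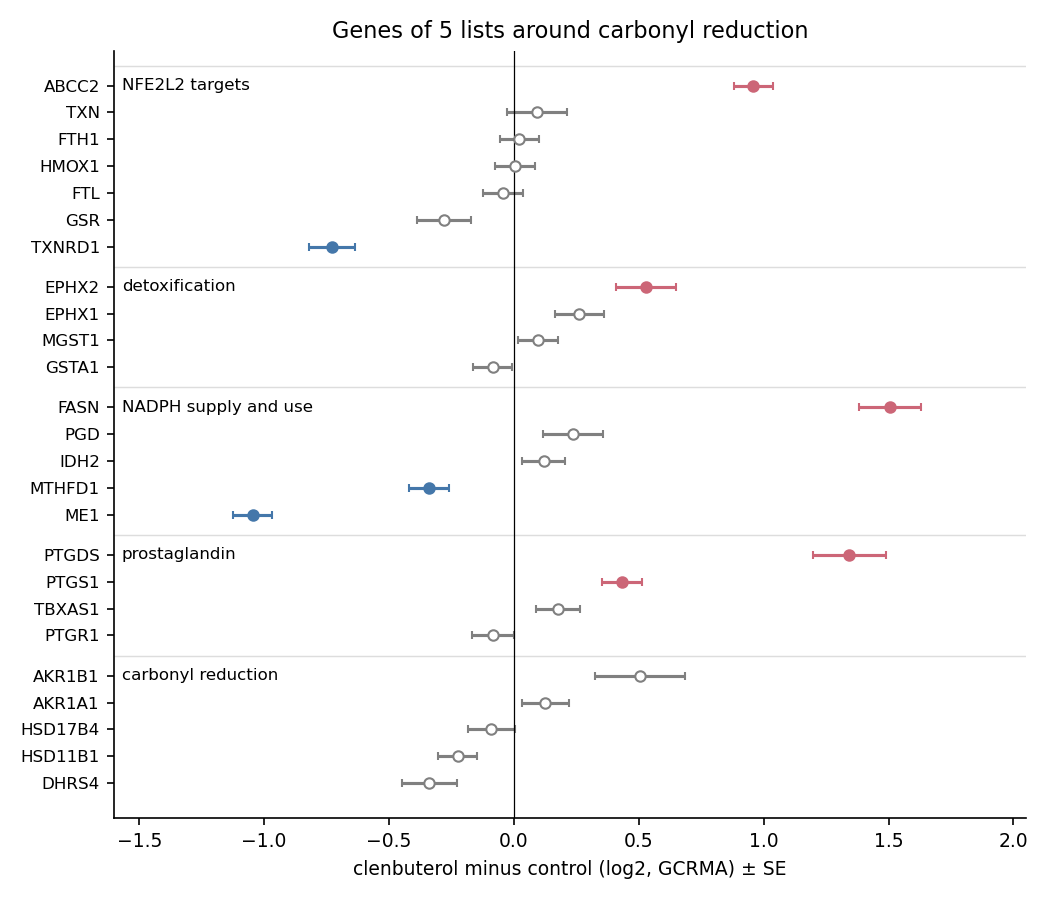
Difference between clenbuterol and control (log2, GCRMA) with its SE for the 25 measured genes of 5 lists, with 1 probe set per gene, the brightest tested. Filled red and blue points passed an adjusted p of 0.05 by limma as higher (5) and lower (3), and open grey points did not.

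Several measures of the samples moved beside these values. The liver label was borne out by the hepatocyte markers, of which 9 of 12 were measured with albumin among them, and 0 of 9 passed by limma, 0 at an unadjusted p under 0.05. Their summed GCRMA level was 131.5 to 131.6 (log2) in controls and 131.8 with clenbuterol. The marker counts stand beside 23.8% of all tested probe sets passing in the GCRMA values and 11.1% in the series values. Markers of stellate cells and fibroblasts rose in 4 of 6 measured genes and fell in 1, with sums of 46.2 to 46.7 in controls and 48.6 to 49.5 with clenbuterol. The gene that fell was RGS5 at −1.37 (log2), a size near that of the largest rise, COL1A1 at 1.42. COL3A1 rose with its brightest probe set at 0.44 (log2), while its others were at 0.22 and −0.14 and did not pass. Sums for the Kupffer cell and macrophage list (1 of 3 rose) were 28.4 to 28.8 and 29.7 to 29.8, and for the T and NK cell list (1 of 3 rose) 18.0 to 19.2 and 20.3 to 20.5. Of the endothelial markers 2 of 5 rose and 1 fell, with sums of 37.5 to 37.7 and 38.1 to 38.2, and of the cholangiocyte markers 0 of 2 rose and 1 fell, with sums of 10.43 to 10.57 and 10.004 to 10.113. Of markers of steroid-making gonad or adrenal cells, where the pig enzyme was also described, HSD3B1 was at −0.02 ± 0.09 (SE) with its brighter probe set and 0.65 ± 0.16 with the other, neither passing, and INSL3 lay below the filter. In the series values 3 of the stellate cell and fibroblast markers passed, COL1A1 and DCN as higher and RGS5 as lower. The rises of TIMP1 and COL3A1 did not pass there. Of the T and NK cell markers 1 passed in the series values, and 0 of the Kupffer cell, endothelial and cholangiocyte markers. No B cell or erythroid marker was measured under the symbol rule. The gap between 3′ and 5′ control probe sets, a measure of RNA length, was smaller with clenbuterol in 7 of 10 pairs. For a GAPDH pair it was 1.68 and 1.81 (log2) in controls and 1.03 and 1.28 in treated pigs. The part of cell makeup and RNA length in the CBR1 values was not tested.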

How the data were processed

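Liver RNA of 4 pigs was measured on 1 Affymetrix porcine array each. GCRMA made the deposited log2 values of 15383 probe sets, per the submitters' processing notes, with its version not given in the sources used here. These columns show the group, through the deposited group means, and no replicate number. A scaled intensity for 24123 probe sets, deposited in the series table, came from steps not given in the sources used here. The authors' deposited table also holds a signed fold as a score, a p-value, a q-value and other flags, of which the fold is printed here.

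Probe sets with GCRMA values of at least 4 on at least 2 arrays were tested (11931). Clenbuterol was compared with control by limma 3.58.1 in R 4.3.3 (lmFit, eBayes, group in the model), with Benjamini-Hochberg adjustment over all of them at 0.05. Males were compared with females on log2 intensities with group in the model. Only the fit of clenbuterol against control in the GCRMA values was tested on simulated data. A symbol was used only where the array design text named the same gene (1165 probe sets, 972 genes), and the brightest tested probe set stood for a gene. Members and lists were chosen with earlier results of these data known. List genes past 0.05 and up to 3 more with the smallest p were named, with a few others added after values were seen. The p-values rest on the spread among these pigs, moderated by limma over all tested probe sets. In the treatment comparison that spread is between the male and the female of each group, so sex, replicate number and pig are mixed in it. Alternatives were the series values, a replicate block, spike scaling, a pseudocount of 16, no filter and leaving out each array.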

Additional observations from a re-analysis of the deposited data

How the results depend on the processing

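The CBR1 pair kept its opposite signs under every alternative run, with smaller differences outside GCRMA. For the CBR1 mRNA probe set the difference of −4.67 (log2) became −3.06 in the series values, with or without the replicate block, −2.69 scaled to the spikes and −2.90 with a pseudocount of 16. For the ovarian clone probe set the difference of 3.09 became 2.03, 2.40 and 1.91. Leaving out 1 array gave −4.72 to −4.62 and 2.94 to 3.25. DHRS4 turned to 0.0328 when scaled to the spikes (adjusted p = 0.916 by limma), and ran from −0.45 to −0.23 without 1 array. The male minus female difference of the ovarian clone probe set ran from −0.22 to 0.16 without 1 array.

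Of the 8 list genes called, 5 were called in the series values (PTGS1, PTGDS and MTHFD1 lost) and 4 with the replicate block, which also lost EPHX2. With spike scaling 7 were called, with MTHFD1, PTGDS and TXNRD1 lost and PGD and TBXAS1 gained, and without the filter 7, with EPHX2 lost. Without 1 array the count ran from 3 to 5. Against the GCRMA values, signs turned in the series values, with or without the block, for IDH2 (−0.0970), HMOX1 (−0.0771), FTH1 (−0.0398) and FTL (0.0709). Signs turned with spike scaling for HSD11B1 (0.26), HSD17B4 (0.31), PTGR1 (0.26), MTHFD1 (0.0176), GSTA1 (0.29) and FTL (0.45). Without 1 array HMOX1 ran from −0.0265 to 0.0337 and TXN from −0.0394 to 0.222. Apart from the shift of 0.37 (log2) that spike scaling adds to all intensity differences, the cause was not tested. Same-numbered arrays share the sex, and the labels name no shared animal, so the block was no part of the reported fits. Over 2 pairs, deviations of same-numbered arrays correlated at 0.18. Dim values limit the CBR1 folds.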
